A study of Mus musculus with 16 samples.

Results

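Knockout (KO) and wild-type (WT) regulatory T cells were compared here after 8 h on an antibody to CD3, in 4 of the 16 libraries of a time series, 2 from each genotype. The libraries were chosen by their titles. Of the 27802 features in the deposited tables, 11427 had a normalised count of 10 or more in at least 2 of these 4 libraries, and they held 99.6% of the reads of the 4. Both groups were CD4+CD25high cells, sorted from the spleens of C57BL/6 mice matched for sex and age, and both were cultured on plates coated with 1 µg/ml of the antibody (clone 145-2C11). The KO mice carried a knock-out of Sh2d2a and the WT mice did not. The labels give neither the allele, the number of mice nor whether animals were pooled, so the 2 libraries of a group may be technical repeats and p-values measure only the spread between libraries. The same cells without stimulation (0 h) and after 2 h and 24 h supply the other 12 libraries.

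Sh2d2a encodes the T cell-specific adaptor protein TSAd, which binds the kinase Lck through which the T-cell receptor signals. CD3 is the signalling part of that receptor, and a plate-bound antibody to it starts a programme of early regulators followed over hours by growth, cytokine and effector genes. Regulatory T cells restrain other lymphocytes and depend on the transcription factor Foxp3 and on CD25, a subunit of the interleukin-2 receptor.

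None of the features below has a gene name, because the gene identifiers listed in the rows proved not to belong to the values there. In the 4 libraries of 8 h the row listed as Foxp3 had normalised counts of 1.6 and 0 in WT and of 0 and 0 in KO, and the rows listed as Cd4, Gapdh, Rplp0 and Ptprc were at 0 in every one. Of 6 genes that every lymphocyte uses, 3 were listed at 0 in all 4 libraries and 4 had a mean under 10. Of 5 regulatory T-cell genes 2 had a mean under 10, as did 2 of 6 T-cell genes, while the rows listed as Cd3d, Cd3e, Cd3g, Lck and Ctla4 had means of 868, 193, 850, 295 and 193. The row listed as Cd79a, a B-cell gene, stood at 904.3 to 1092.3. The row listed as Sh2d2a was at 0 in the 2 WT libraries as well as in the KO libraries, so neither the genotype nor the cell type could be checked. Features are therefore called L and H for lower and higher in KO, numbered by the size of their difference, and no gene or pathway is read from them. Only the first 2 in each direction are printed with their listed identifier, which marks a row and not a gene.

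Depth was uneven between the genotypes. The WT libraries held 5435682 and 6366106 reads and the KO libraries 2065662 and 3133679, the first of which is the shallowest of the series. One read was worth 0.797 and 0.688 normalised counts in WT and 2.18 and 1.43 in KO. Within the KO pair 8.08% of the 11427 features were at least 2-fold apart, against 3.7% within the WT pair and 4.32% to 6.05% in the other groups. With all libraries thinned to 2065662 reads, 14498 and 14724 features had a read in KO and 14840 and 14726 in WT.

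At 8 h, 98 features differed between the genotypes, 78 lower and 20 higher in KO. That is 0.791% of the 12391 features tested, 0.629% called lower and 0.161% called higher, by limma at a Benjamini-Hochberg adjusted p of 0.05. An unadjusted p under 0.05 was reached by 10.5%. All 98 belonged to the 11427 features kept by the 8 h filter, of which they are 0.858%. The median log2 difference was -0.84 for the lower features and 0.81 for the higher ones, and it was -0.01 over all features tested. Differences of at least 2-fold were seen for 26 lower and 7 higher features, and 12 and 5 differed by less than 1.5-fold. The 2 KO libraries lay on one side of both WT libraries for each of the 98. Over all tested features this held for 21.5% below and 19.7% above, and over the 11427 for 21.7% and 20.1%, so separation of the 4 libraries alone is common.

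**Figure D1:**
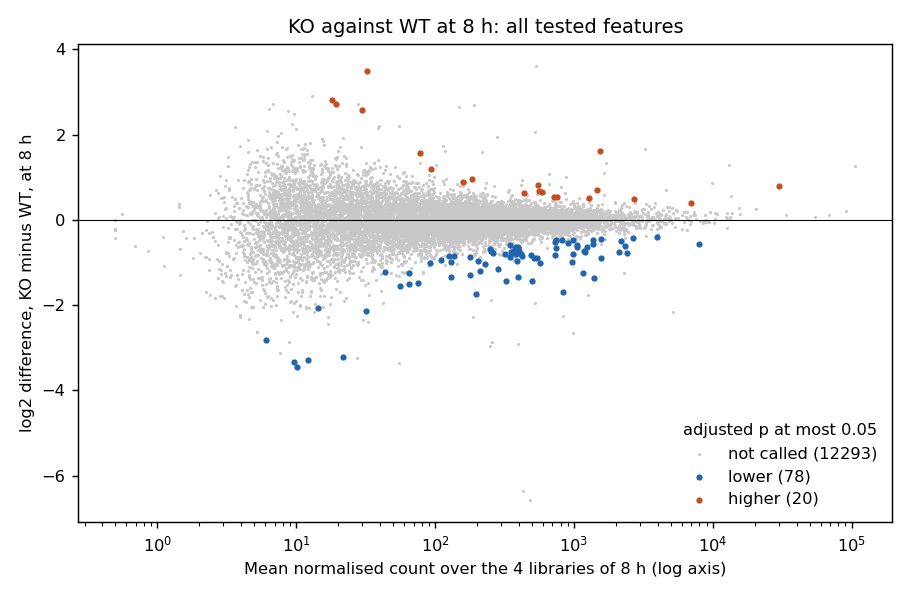
Each point is one of 12391 tested features, with its mean normalised count over the 4 libraries of 8 h on a log axis and its log2 difference between KO and WT. The 78 features called lower are blue and the 20 called higher are orange; among features of low count only large differences were called, and several large differences of abundant features are grey because they were not called.

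Lower features were the larger part of the calls under every setting, but their share depended on the test. With no filter on low values limma called 49 features, of which 85.7% were lower. With DESeq2 on the recovered reads 113 features were called, 1.16% of those given an adjusted p, and 65.5% of them were lower, against 79.6% of the 98, and with only the 4 libraries of 8 h in the model 66.4% of 116 were lower. edgeR called 76 (0.613%), of which 76.3% were lower. By all 3 tools 69 of the 98 were called. An adjusted p was given by DESeq2 for 9748 of the features. With all libraries thinned to the depth of the shallowest, limma called 66, of which 77.3% were lower.

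The set of calls changed when 1 of the 4 libraries was left out. A group is then left with 1 library, which in itself widens the standard error, so a lost call need not mean a changed difference. Without the first or second WT library the median log2 difference of the 78 was -0.8 or -0.85. Without the first or second KO library it was -0.82 or -0.85, against -0.84 with all libraries. That of the 20 was 0.9, 0.7, 0.79 and 0.79 in the same order, against 0.81. Without the first WT library of 8 h 30 features were called and without the second 34, while leaving out the first KO library gave 52 and leaving out the second 155. Of the 98 calls, 18 held whichever of the 4 libraries was left out, 16 lower and 2 higher, and the same 18 also held under each of the 9 alternative settings that used all libraries. Every one of the 98 kept its direction under every setting run. Among the 10 largest differences in each direction, only L3, L6 and H5 were among the 18.

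The largest of the called differences belonged to features of few reads. L1, listed as ENSMUSG00000035198, had normalised counts of 23.9 and 16.5 in WT, from 30 and 24 reads, and no read in either KO library. A count of 0 was taken to allow at most 3 reads over both KO libraries, a pooled level of 2.59. The pooled WT level of L1, 19.9, was 7.69-fold above that. Counting error in the WT reads was not included and L1 was picked for its size, so this is not a strict lower bound. L2, listed as ENSMUSG00000021336, stood at 19.9 and 27.5 in WT and at 0 and 1.4 in KO. Its 65 reads in WT against 1 in KO gave a ratio of 27.8, with a 95% interval of 4.81 to 1110 from exact binomial counting error alone. The WT and KO libraries did not overlap for either feature, but only calls without overlap were numbered. The lack of overlap was thus fixed by that rule and is no separate evidence for these features. The log2 difference of L1 was -3.45 ± 0.7 (SE; limma adjusted p = 0.006892) and that of L2 -3.28 ± 0.61 (SE; limma adjusted p = 0.002926). The call of L1 was lost without the first WT library (log2 difference -3.21) or the second (-3.7). That of L2 was lost without the second WT library (-3.06) or the first KO library (-2.89). In all, 3 of the 78 lower features were at 0 in both KO libraries.

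L3 had the firmest of these low-count differences, though it too reached 10 only in the WT libraries. It was at 31.9 and 50.2 in WT and at 2.2 and 2.9 in KO, from 113 reads against 3, a ratio of 16.1 with a 95% interval of 5.37 to 79.2. Its log2 difference was -3.22 ± 0.47 (SE; limma adjusted p = 0.0001547). L4 and L5 followed with WT values of 54.2 and 50.9 and of 27.1 and 21.3, and KO values of 6.5 and 15.7 and of 2.2 and 7.2. Their adjusted p-values by limma were 0.04335 and 0.0397, and each call was lost without either WT library or without the first KO library (0.2486 or more for L4, 0.1929 or more for L5). Both also missed the threshold by edgeR (adjusted p = 0.08275 for L4 and 0.1344 for L5), and L4 did so by DESeq2 (0.08053).

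Better covered features came next. L6 stood at 265.3 and 341.4 in WT and at 85.1 and 93 in KO, 3.41-fold lower by group means (log2 difference -1.74 ± 0.2, SE; limma adjusted p = 3.028e-06). The gap between the genotypes was wider than the gap within either pair. L7 was at 1545.7 and 1020 in WT and at 379.9 and 390.5 in KO, 3.33-fold lower, with its WT libraries well apart. Its adjusted p was 0.04335 by limma and 0.06795 by edgeR, and the call ended without the first WT library (0.176) or without either KO library (0.2521 and 0.1133). L8, L9 and L10 had WT values between 78.5 and 129.1 and KO values between 21.8 and 50.1, with log2 differences of -1.55, -1.51 and -1.49. Each of these lost its call without the first WT library, the second, or the first KO library (limma adjusted p of 0.07052 to 0.3821), and L8 also did so without the second KO library (0.1133) and by edgeR (0.1154).

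**Figure D2:**
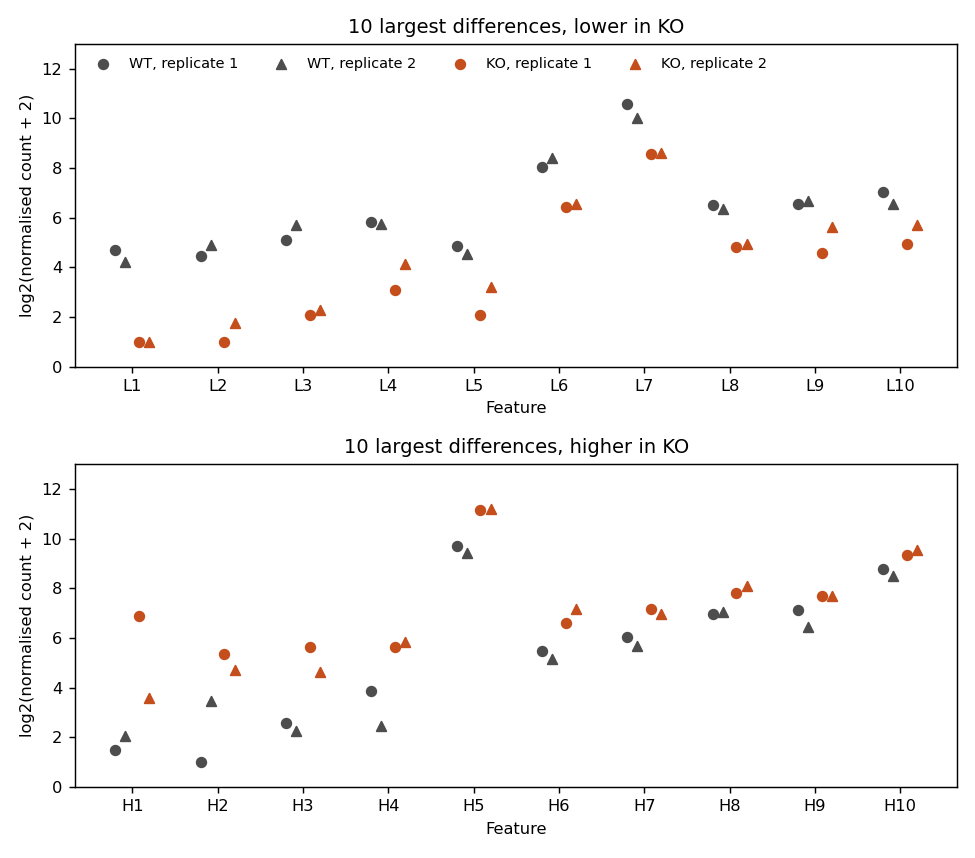
Each symbol is the log2 of a normalised count plus 2 in one library of 8 h, grey for WT and orange for KO, circles for replicate 1 and triangles for replicate 2, for the 10 largest differences in each direction. L6, L7 and H5 lie high on the axis, while L1 to L3 in KO and H1 to H3 in WT lie near the floor.

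The lowest adjusted p-values fell on features of intermediate to high count. L13 had 2242.1 and 1757.8 in WT and 858 and 680.9 in KO, with a log2 difference of -1.37 ± 0.15 (SE; limma adjusted p = 3.028e-06). L14 had 534.6 and 611.9 against 235.8 and 211.7, and L26 1208.7 and 1345.6 against 689.9 and 605.1, with log2 differences of -1.35 and -0.98 and the same adjusted p by limma as L13. L11 had 635.8 and 825.2 in WT and 235.8 and 297.5 in KO, a log2 difference of -1.44 ± 0.18 (SE; limma adjusted p = 8.015e-06). In each of these both WT libraries stood well clear of both KO libraries. Small differences were called only where counts were high. L65, at 9327.6 and 9633.6 in WT and 6317.8 and 6441.6 in KO, was 1.49-fold lower and was among the 18 that held without any one library.

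Higher features were fewer and their largest differences less even. H1, listed as ENSMUSG00000087783, had 0.8 and 2.1 in WT, from 1 and 3 reads, and 115.7 and 10 in KO. The 2 KO libraries thus differed by more than the second one did from WT, and without the first KO library the log2 difference fell from 3.48 to 1.83 (limma adjusted p = 0.5668). The call was also lost without the first WT library (0.3422) or the second (0.1679). H2, listed as ENSMUSG00000114843, had 0 and 8.9 in WT and 39.3 and 24.3 in KO, and H3 had 4 and 2.8 against 48 and 22.9. H2 lost its call without the first WT library (limma adjusted p = 0.5846) or the first KO library (0.2425), and H3 lost it without either of those or the second WT library (0.2398 to 0.3604). H4, at 12.7 and 3.4 in WT and 48 and 55.8 in KO, had a log2 difference of 2.59 (limma adjusted p = 0.002552). Among the 4 libraries, only leaving out the second WT one lost its call, at a log2 difference of 1.87.

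H5 was the leading higher feature of substantial count. It stood at 831.8 and 680.7 in WT and at 2250.8 and 2353.2 in KO, 3.04-fold higher (log2 difference 1.61 ± 0.19, SE; limma adjusted p = 0.001133). H12, at 1105.9 and 1122.6 against 1923.3 and 1706.6, had the lowest adjusted p among the higher features, 0.0005401 by limma, with a 1.63-fold difference. These were the only 2 higher features whose call held without any one of the 4 libraries. H6 to H10 had log2 differences of 0.82 to 1.56. H6 was at 43 and 33.7 in WT and at 96.1 and 140.2 in KO. H7 had 63.7 and 49.6 against 141.9 and 121.6. H8 had 122.7 and 128.7 against 220.5 and 271.8 (limma adjusted p = 0.005641), and H9 139.4 and 86 against 205.2 and 201.7. H10 had 437.4 and 354.5 against 652.7 and 743.9 (limma adjusted p = 0.0007332).

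Whether a feature was called depended on its count. Among features with a mean under 20 over the 16 libraries 0.343% were called, and the smallest called log2 difference was 2.07 in size. From 100 to 500 the share was 0.846%, with a smallest called difference of 0.59, and at 2000 or more it was 3% of 300 features, with a smallest of 0.4. The median standard error went from 0.64 in the lowest range to 0.1 in the highest. The median difference within the KO pair was 0.77 in the lowest range and 0.07 in the highest, and within the WT pair 0.5 and 0.1. Of the 11427 features, 127 reached 10 only in both KO libraries and 94 only in both WT libraries. These had to differ by the filter alone, and 3 and 6 of them are among the 98. The 3 are H1, H2 and H3, and L1, L2, L3 and L5 are among the 6. These numbered features thus passed the 8 h filter only through the group where they are high.

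A few very abundant features took a larger share of the KO libraries. The most abundant feature of the 8 h libraries stood at 69699 and 55765 in WT and at 166353 and 132925 in KO, which is 1.61% and 1.27% of the WT values and 3.69% and 2.97% of the KO values. Its log2 difference of 1.25 ± 0.23 (SE) missed the threshold (limma adjusted p = 0.06377). It was 61727 to 127284 in the KO libraries of the other times and 57746 to 70586 in the WT ones. Of the 10 most abundant features, H11 was called, at 23297.1 and 20563.9 in WT and 42164 and 34485.5 in KO, and 8 had both KO libraries above both WT libraries, where 19.7% of all tested features did. The 10 highest features of each library together held 11.9% and 11.2% of the values in KO and 8.6% and 8.93% in WT. In the other KO libraries this share was 8.89% to 11.4%, and in the other WT libraries 7.95% to 9.58%. With TMM scaling, which is meant to set such features aside, 97 features were called and 78.4% of them were lower. The 78 lower features held 1.7% and 1.64% of the WT values and 0.982% and 0.993% of the KO values.

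The genotype differences at 0, 2 and 24 h were not used to choose the 98 features. The libraries of these times still entered that choice, through the filter and the variance, which came from all 16 libraries. A small spread within those groups favoured a call, so separation of libraries and calls at other times are not independent of the choice. Of the 78 lower features, 61 were below WT at 0 h, 74 at 2 h and 73 at 24 h, which is 78.2%, 94.9% and 93.6%, against 51.2%, 50.1% and 52.1% of all tested features. Their median log2 differences were -0.22 at 0 h, -0.33 at 2 h and -0.74 at 24 h. Of the 20 higher features, 19, 16 and 18 were above WT at these times, with medians of 0.36, 0.36 and 0.59, where 48.8%, 49.9% and 47.9% of all tested features were above. The medians over all tested features were between -0.02 and 0. Both KO libraries lay below both WT libraries for 70 of the 78 at 24 h, which is 89.7% against 25.5% of all features, for 54 at 2 h (69.2% against 18.4%) and for 41 at 0 h (52.6% against 20.3%). Both KO libraries lay above both WT libraries for 16 of the 20 at 24 h (80% against 20.9%), for 15 at 2 h (75% against 17%) and for 14 at 0 h (70% against 19.2%).

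Calls at other times were most often made at 24 h. There 55 of the 78 lower and 11 of the 20 higher features were called in the same direction, 70.5% and 55%, where 3.54% and 1.53% of all tested features were called lower and higher. At 2 h the counts were 14 and 2 (background 0.186% and 0.0242%), and at 0 h 8 and 3 (0.113% and 0.0484%). L6, L14, L20, L50, L62 and L75 were called lower at all 4 times and H5 and H9 higher. The 8 h call of H9 was marginal (limma adjusted p = 0.04927). It was lost by edgeR (adjusted p = 0.06303) and with thinned reads (limma adjusted p = 0.08668). The 8 h call of L75 was also lost by edgeR (adjusted p = 0.06416). At 8 h alone 20 lower and 8 higher features passed the threshold, which does not show that the difference was confined to 8 h.

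**Figure D3:**
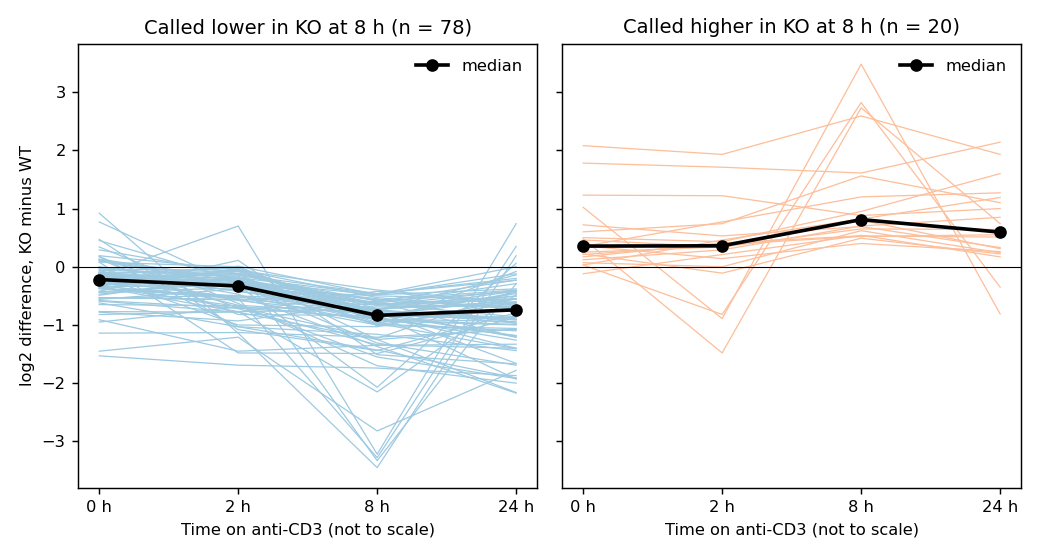
Each thin line is the log2 difference between KO and WT of one feature called at 8 h, at 0, 2, 8 and 24 h, and the black line is the median. The lower features have medians of -0.22, -0.33, -0.84 and -0.74 and the higher ones of 0.36, 0.36, 0.81 and 0.59. The features were chosen by their 8 h difference, and the libraries of the other times entered that choice through the filter and the shared variance.

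The 18 calls that held without any one library fell into different time courses, a description made after their values were seen. In one kind the genotypes were apart before stimulation and stayed so. L6 was at 246.7 and 276.4 in WT and at 91.6 and 87.3 in KO at 0 h, and at 330.3 and 315.1 against 88.7 and 84.9 at 24 h. L20 was at 340.8 and 315.2 in WT and at 134.7 and 161.9 in KO at 0 h, close to its 8 h values of 286 and 304.2 against 155 and 103. H5 was at 664.8 and 892.2 in WT at 0 h and at 2919.3 and 2416.6 in KO. The KO libraries of L6 stayed between 78.7 and 93 at all times, and no KO library reached the lowest WT library.

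L11 and L12 were not below WT at 0 h and were called lower from 2 h on. L11 was at 88 and 106.7 in WT and at 133.6 and 136.5 in KO at 0 h. At 2 h it was at 767.1 and 666.3 in WT and at 420 and 271.2 in KO, a log2 difference of -1.08 (limma adjusted p = 0.001176). At 8 h, as above, the WT libraries were still high and the KO libraries at 235.8 and 297.5, so the KO value stood above its own 0 h level but well under WT. L12 was at 73.7 and 116.4 in WT and at 101.5 and 109.8 in KO at 0 h, at 262 and 263.4 against 131.2 and 124.3 at 2 h, and at 558.5 and 386.1 against 179 and 164.5 at 8 h. L21 and L31 were called lower at 2 h too, with log2 differences of -1.03 and -0.68 (limma adjusted p = 0.003928 and 0.001176). Both of these already had both KO libraries below both WT libraries at 0 h, with log2 differences of -0.62 and -0.35 that were not called.

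L13, L26, L30, L32 and L44 were called lower at 8 and 24 h and not at 0 or 2 h. So were L47, L48 and L65, with log2 differences of -0.75, -0.74 and -0.57 at 8 h, and H12 in the higher direction, with 0.7. A change in the genotype difference from 2 to 8 h passed the test for none of these features (limma adjusted p of 0.2736 to 0.9996). One from 8 to 24 h passed only for L44, as given below. L13 was at 959.9 and 669.8 in WT and at 575.2 and 583.9 in KO at 2 h, and its 24 h values were 3472.5 and 3585.7 against 810.4 and 757.7. The WT libraries of 8 h, at 2242.1 and 1757.8, stood between those of 2 h and 24 h, and the KO libraries of 8 h stayed near their earlier level. L44 was at 1620 and 1489.1 in WT and at 1432.3 and 1570 in KO at 2 h, at 2985.4 and 3115.8 against 1868.7 and 1705.2 at 8 h, and at 6175 and 5414.6 against 2065.4 and 1617.9 at 24 h. L32 was level at 2 h, with 432.8 and 398.1 in WT and 458.8 and 376.7 in KO, and at 8 h it stood at 627.8 and 715.1 against 377.7 and 340.5. L26 had both KO libraries below both WT libraries at 0 and 2 h as well, with log2 differences of -0.44 and -0.36. Its difference was -0.98 at 8 h and -1.1 at 24 h, and that of L30 was -0.91 and -0.99.

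L3 was called at 8 h alone. At 2 h it was at 15.7 and 26 in WT and at 39.9 and 29.4 in KO, and at 24 h at 11.7 and 10.3 against 33.3 and 11.4. Both KO libraries were thus above WT at 2 h, the groups overlapped at 24 h, and both KO libraries were far below WT at 8 h.

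**Figure D4:**
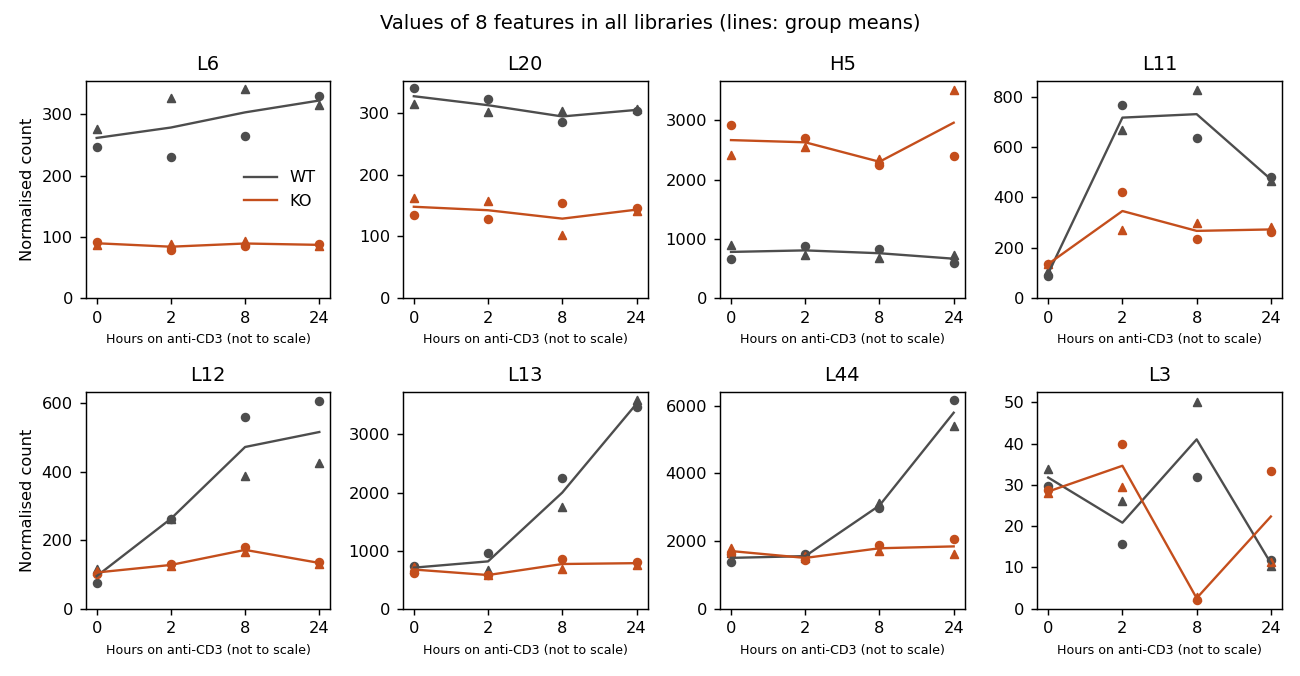
Normalised counts of 8 features in all 16 libraries, with circles for replicate 1, triangles for replicate 2 and lines through the group means (grey WT, orange KO); the time axis is not to scale. L6, L20 and H5 are apart at 0 h, L11 and L12 were called apart from 2 h on, L13 and L44 at 8 and 24 h, and L3 at 8 h.

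A difference that passes at one time and not at another need not differ between them, so the genotype difference at 8 h was tested against that at each other time as an interaction. Against 0 h, 6 features were called (0.0484% of those tested), all of them more negative at 8 h and all among the 78. The interaction holds the same 8 h difference that chose the 78, so that overlap is no separate evidence. L11 had an interaction of -1.91 ± 0.25 (SE; limma adjusted p = 0.0001564). L12 had -1.61, L13 -1.3, L60 -1.09, L30 -1.04 and L44 -0.96, with adjusted p-values by limma of 0.004396 to 0.0115. L60, not described so far, was at 584.4 and 656.2 in WT and 842.1 and 850.1 in KO at 0 h, and at 1692.3 and 1320.1 against 988.9 and 929.8 at 8 h. The call of L11 held without any one library, and each of the other 5 was lost without at least 1 of the libraries of 0 or 8 h. Leaving out 1 library of 0 h gave 19 calls (second WT), 11 (first KO), 9 (first WT) or 4 (second KO). The direction was then mixed in some: 63.2% of the 19 and 66.7% of the 9 were more negative at 8 h, as were 77.8% of 9 calls with the first KO library of 8 h missing, 71.4% of 7 with the second missing, and 88.9% of 18 by DESeq2.

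Against 2 h, only L3 was called (0.00807%), with an interaction of -3.93 ± 0.67 (SE; limma adjusted p = 0.02057). Its 8 h difference also stood apart from the mean of the other 3 times, at -3.65 ± 0.55 (SE; limma adjusted p = 0.001953), the only feature so called. The call against 2 h ended with edgeR (adjusted p = 0.0652), with DESeq2 (0.09564), where the 1 feature called was another one with a positive interaction, with thinned reads (limma adjusted p = 0.08371), with the second WT library of 8 h left out (limma adjusted p = 0.1487) and likewise with the first KO library of 2 h (0.09462). The call against the mean ended without the second WT library of 8 h (limma adjusted p = 0.0643). Leaving out any of the 8 libraries of 2 and 8 h gave 3 to 11 calls against 2 h, the most without the first WT library of 2 h. Against the mean, 6 features were called with the first KO library of 8 h missing, 12 with the second missing, and at most 3 with any other missing.

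Against 24 h, 3 features were called (0.0242%). L3 was lower at 8 h by comparison, at -3.97 ± 0.67 (SE; limma adjusted p = 0.01729), a call lost without the second WT library of 8 h (0.1605) or the first KO library of 24 h (0.06573). L44 had the wider gap at 24 h, an interaction of 0.89 ± 0.16 (SE; limma adjusted p = 0.02449), lost without any of 5 of the 8 libraries concerned (0.1088 to 0.1977). The other feature was not called at 8 h. It stood at 12.7 and 8.3 in WT and 10.9 and 17.2 in KO at 8 h, and at 128 and 77.9 against 1.2 and 6.3 at 24 h, with an interaction of 4.65 ± 0.85 (SE; limma adjusted p = 0.02449). Leaving out the second WT library of 24 h gave 23 calls, and leaving out the first KO library of that time gave 7. With an 8 h library missing the count was 10 (second KO), 7 (first KO) or 1 (second WT), and with either WT library of 2 h missing it was 5. For the other features called at 8 h, these tests do not separate the 8 h difference from that at other times.

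Stimulation responses that use no 8 h library give a further description of the 98. Their libraries still entered the variance by which the 98 were called. In WT, 45 of the 78 lower features were called higher at 24 h than at 0 h and 1 was called lower, where 3.56% and 2.03% of all tested features were so called by limma. Their median log2 change from 0 to 24 h was 0.68 in WT and 0.2 in KO, against 0.01 and 0 over all tested features. In KO 1 of the 78 was called higher, with 0.0161% of all features. At 2 h, 6 of the 78 were called higher in WT and 1 in KO (background 0.0888% and 0.00807%), and the median changes were 0.07 and -0.02. Of the 20 features higher in KO, 5 were called lower in WT at 24 h, and the median changes were -0.22 in WT and -0.06 in KO. The changes from 0 to 8 h share the libraries that chose the features. The median of the 78 was 0.52 in WT and 0.02 in KO, and that of the 20 was -0.22 and 0.22. No library analysed here held cells kept for these times without the antibody, so stimulation and time in culture cannot be told apart. In bulk samples, fewer cells carrying a transcript and less of it per cell cannot be told apart either.

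**Figure D5:**
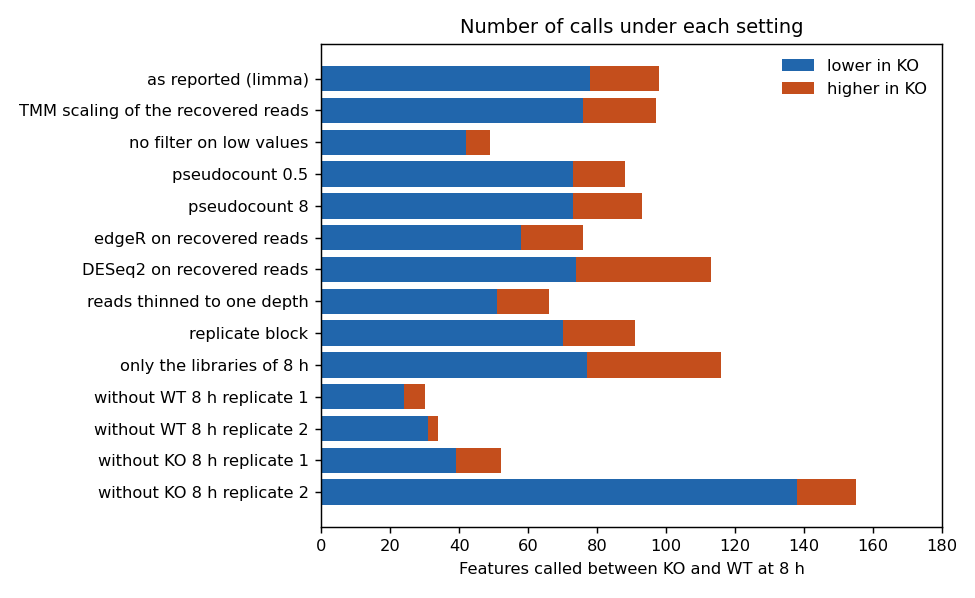
Bars give the number of features called between KO and WT at 8 h under each setting, blue for lower and orange for higher in KO. The count of 98 goes down to 30 and 34 without a WT library and up to 155 without the second KO library, and lower features are the larger part in every bar.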

How the data were processed

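Polyadenylated RNA was sequenced in 16 libraries, per the labels. STAR 2.6.0a, HTSeq and DESeq2 with the mouse build GRCm38.p6 are named in the submitters' processing notes, and how reads were counted, or on which strand, is not given here. The deposited values, headed as counts, are a normalised signal: whole reads divided by 1 factor per library. Dividing each library by its smallest non-zero value left 100% of values above 0 whole, to within 0.01 reads. A duplicated row was removed.

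The test was limma 3.58.1 (R 4.3.3) with a trended, robust prior on log2(value + 2), which understates folds of low features, over 12391 features with 10 or more in at least 2 of the 16 libraries. The model had a mean for each of 8 groups and 8 residual degrees of freedom. P-values were adjusted by Benjamini-Hochberg over all tested features. edgeR 4.0.16 and DESeq2 1.42.0 were run on recovered reads, calling 76 and 113 features. Floors of 3 reads and 95% intervals cover counting error only. The scripts were tested on simulated data.

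Numbered features are calls whose libraries do not overlap, with a mean of at least 20 in the higher group, ranked by log2 difference. The rule was to print the 10 largest differences and the 5 lowest p-values per direction and every interaction call. Some of the 10 largest are given without their own p-value. Features outside that rule were chosen after their values were seen. Members and lists were chosen with earlier results of these data known. A check of same-numbered deviations within each time showed no pairing by the replicate numbers in the titles. Pairing across times was not checked.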

Additional observations from a re-analysis of the deposited data

Results flagged for a closer look

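The genotype difference at 8 h differed from that at another time by a test of the difference itself for these features (limma, adjusted p at most 0.05). Against 0 h the values were -1.91 for L11, -1.61 for L12, -1.3 for L13, -1.09 for L60, -1.04 for L30 and -0.96 for L44. Against 2 h L3 had -3.93. Against 24 h L3 had -3.97, L44 0.89 and a feature not called at 8 h 4.65. Against the mean of the 3 other times L3 had -3.65. Each value is the log2 difference of KO minus WT at 8 h less that at the time named. The feature with 4.65 was at 128 and 77.9 in the WT libraries of 24 h and at 1.2 to 17.2 in the other libraries. It lost its call without any of 5 of the 8 libraries of 8 and 24 h (limma adjusted p of 0.05122 to 0.236).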

How the results depend on the processing

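Every one of the 98 differences kept its direction under each alternative, and of 948 values of single printed features 775 kept their call, 173 lost it and 0 reversed. The 98 calls at 8 h became 49 without a filter on low values, where more features were tested, and 30 to 155 when 1 library was left out. The 6 calls against 0 h became 1 without the filter, 18 by DESeq2 and 4 to 19 with 1 library left out. The 1 call against 2 h became 0 without the filter, by edgeR and with thinned reads (793, 481 and 517 features at an unadjusted p under 0.05), 2 with a pseudocount of 8, and 1 to 11 with 1 library left out. The 3 calls against 24 h became 0 without the filter and with thinned reads (1389 and 921 unadjusted), 1 and 6 with pseudocounts of 0.5 and 8, 21 by DESeq2, and 1 to 23 with 1 library left out. The 1 call against the mean of the other times became 0 by DESeq2 (438 unadjusted) and 1 to 12 with 1 library left out. Except where stated, the cause was not tested. Leaving out libraries that enter only through the shared spread was chosen after seeing the data.

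No pairing by replicate number was seen within a time: the deviations of same-numbered libraries correlated at -0.01, -0.04, 0.03 and -0.02 at 0, 2, 8 and 24 h. This check cannot tell whether same-numbered libraries of different times were paired. With a replicate block the counts were 91 at 8 h, 6 against 0 h, 1 against 2 h, 5 against 24 h and 1 against the mean. With 2 libraries a group, an exact permutation test of 1 feature cannot go below p = 0.333, so each call rests on the spread shared over features and libraries. In the first KO library of 8 h 3 reads are worth 6.55 normalised counts, so a feature at 0 there may have a level of up to that value, for counting error only.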

Other observations

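Some of the largest differences at 8 h were not called. Among 6740 features with a mean of at least 100 over the 16 libraries, 29 differed by at least 2-fold between the genotypes without being called, and 15 were called with a difference of that size. In 22 of the 29 a pair of 8 h libraries was at least 2-fold apart, and in none of the 15. The standard error behind a call grows with this spread, so the contrast is in part built into the call. These features were picked after their values were seen.

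The largest of the 29 was at 1204 and 718 in the WT libraries of 8 h and at 4 and 13 in KO. It was also at 607 in the second WT library of 2 h, and at 5 to 21 in the other 11 libraries outside 8 h, so it was high in 3 WT libraries and in no KO library (log2 difference -6.58 ± 1.41, SE; limma adjusted p = 0.1139). Another stood at 617 and 4 in WT and 703 and 804 in KO. Outside 8 h it was 76 in the first KO library of 2 h and 579 to 833 in the other libraries. One more, at 111 and 2991 in WT and 127 and 112 in KO, was between 72 and 127 in every library but that one. One was at 689 and 471 in WT and at 22 and 906 in KO at 8 h. At 0 h it stood at 588 and 3 in WT and 556 and 6 in KO, so the libraries of one group lay on either side of a wide gap in both genotypes.

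Pairs this far apart were found in all 8 groups. Among the 6740 features, a pair was at least 4-fold apart for 19 in WT and 15 in KO at 8 h. In the other groups this held for 16 to 29. None of those at 8 h was among the 98, but a wide pair raises the standard error and so works against a call. Below that mean, the KO pair of H1 was at 115.7 and 10 and the WT pair of H2 at 0 and 8.9. Each library was at least 4-fold above the median of the others for 1 to 15 of the 6740 features and at least 4-fold below for 1 to 9. The first KO library of 8 h was above for 1 and below for 8.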
